A study of Homo sapiens with 8 samples.

Results

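Within MDA-MB-231, a line from a human breast cancer that lacks hormone receptors and HER2 amplification, a set of single cells carried transcripts of SPANXB1 and AGR2 at high levels. A cell was called positive when at least 3 of the 6 genes SPANXB1, AGR2, MAL2, TNS4, SLAMF7 and SPDEF reached 20 CPM (counts per 1e6 counts of that cell). By this rule 55 of 363 kept cells were positive, 15.2% of the total, and the other 308 cells of the same libraries served as the comparison. The label "rare" held in the knockdown libraries, where 12 cells were positive, but not in the wild-type (WT) libraries, where up to 33.3% of cells were. The cells are called positive cells below and are given no cell type name.

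The study asked how irradiation changes transcripts when ATM, a kinase activated by broken DNA, is present or knocked down. Its 8 libraries form 4 groups of 2: untreated WT cells, WT cells given 5 Gy and cultured for another 4 h, untreated ATM knockdown cells, and ATM knockdown cells given the same dose and time. All come from the 1 line, and cells were picked singly by mouth pipette. Replicate numbers only name libraries, and nothing in the labels says whether the libraries of a group were separate cultures, so p-values reflect only how these libraries vary, which may be technical variation. The WT libraries share 1 title suffix and the knockdown libraries another, so genotype and handling cannot be told apart.

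Luminal breast epithelium lines the ducts and lobules of the gland, and its cells are known for keratins 8, 18 and 19, for cell adhesion through E-cadherin, and for transcription factors such as GATA3. SPDEF is an ETS-family transcription factor of secretory epithelium, and AGR2 is a protein disulfide isomerase of the endoplasmic reticulum that helps mucins fold. MAL2 is a membrane protein of apical transport, and TNS4 (tensin 4) is a tensin family protein that associates with integrins and growth factor receptors. SPANXB1 belongs to a family of cancer/testis genes on the X chromosome, which are normally silent outside the germ line, and SLAMF7 is a receptor best known on plasma cells and natural killer cells. MDA-MB-231 itself is known as a mesenchymal-like line with high vimentin and little E-cadherin.

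The positive cells were most common in untreated WT. The untreated WT libraries held 12 of 48 positive cells (25.0%, exact Clopper-Pearson 95% interval 13.6% to 39.6%) and 16 of 48 (33.3%, 20.4% to 48.4%). In the irradiated WT libraries 9 of 48 (18.8%, 8.95% to 32.6%) and 6 of 48 (12.5%, 4.73% to 25.2%) were positive. The untreated knockdown libraries held 3 of 41 (7.32%, 1.54% to 19.9%) and 3 of 44 (6.82%, 1.43% to 18.7%). The irradiated knockdown libraries held 4 of 43 (9.30%, 2.59% to 22.1%) and 2 of 43 (4.65%, 0.568% to 15.8%). Group means were 29.2% ± 5.89 in untreated WT, 15.6% ± 4.42 in irradiated WT, 7.07% ± 0.353 in untreated knockdown and 6.98% ± 3.29 in irradiated knockdown (SD, n = 2 libraries each). All 4 WT libraries lay above all 4 knockdown libraries.

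**Figure D1:**
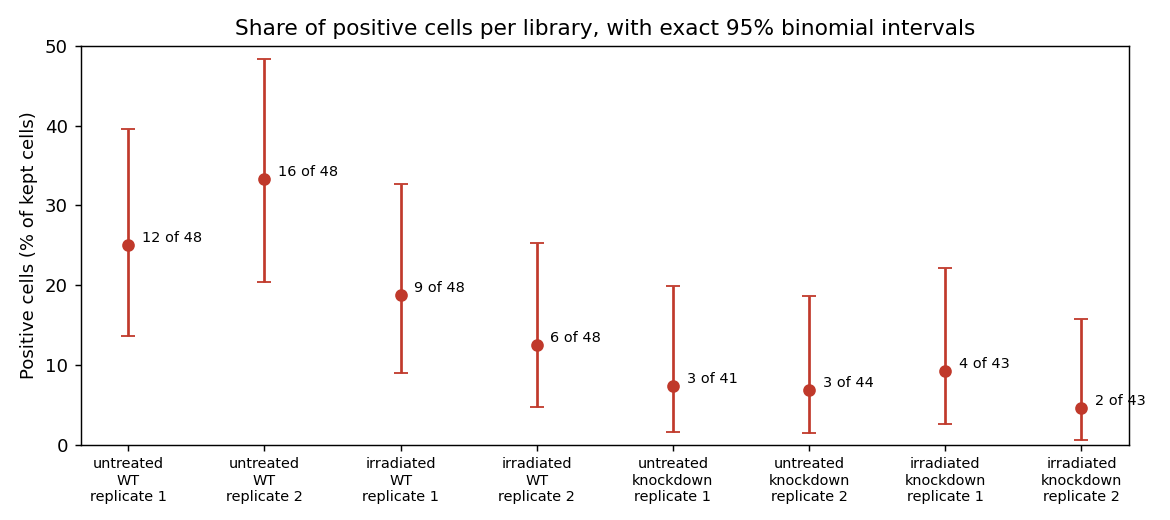
Share of positive cells (percent of kept cells, y axis) in each library (x axis), with the number of positive and kept cells beside each point and bars for the exact 95% binomial interval. The 4 WT libraries sit between 12.5% and 33.3% and the 4 knockdown libraries between 4.65% and 9.30%.

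WT exceeded knockdown by 15.4 percentage points, averaged over treatments. A two-sided exact permutation of genotype within treatment gave p = 0.0556, the smallest of its 36 arrangements, so this design cannot pass 0.05. Irradiated libraries lay 6.82 points below untreated ones, with an exact two-sided p = 0.167 (treatment permuted within genotype). The smallest p of this permutation is also 0.0556, so it could not have passed 0.05 either. Untreated and irradiated means were 29.2% and 15.6% in WT, but 7.07% and 6.98% in the knockdown. The intervals cover the sampling of cells within a library only. Part of the share rests on where SPANXB1 meets its threshold. The other cells of the WT libraries had median SPANXB1 levels of 16.5 to 47.4 CPM, around the 20 CPM of the rule, against 0 to 9.90 CPM in the knockdown libraries. Without SPANXB1, with 3 of the other 5 genes required, 44 cells passed and WT still lay 11.8 points above knockdown (exact permutation p = 0.0556). This does not remove such differences in the remaining genes. In other cells MAL2 averaged 17.8 CPM in untreated WT and 6.35 CPM in untreated knockdown, with 14.9 and 6.97 CPM after irradiation. TNS4 averaged 14.5 and 0.548 CPM untreated, but 2.45 and 2.53 CPM irradiated. AGR2 averaged 7.36 and 3.08 CPM untreated, but 4.03 and 12.8 CPM irradiated.

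The 6 genes chose the cells, so their levels are given as a description with no test. SPANXB1 reached 20 CPM in 53 of 55 positive cells and in 133 of 308 other cells, with medians of 1932 and 16.0 CPM. AGR2 did so in 52 positive and 13 other cells, TNS4 in 45 and 22, and MAL2 in 36 and 34. SPDEF did so in 31 positive and 2 other cells, and SLAMF7 in 23 and 4. SPANXB1 thus marked nearly all positive cells without being confined to them, whereas SPDEF and SLAMF7 marked fewer cells but were seldom at that level elsewhere.

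Summed over the cells of a class, SPANXB1 (ENSG00000227234.1, chromosome X, 141002591 to 141003706, GRCh38) stood at 1710.5 and 2419 CPM in the positive cells of untreated WT. The irradiated WT libraries held 2339 and 1575 CPM, with 2738 and 3828 CPM in untreated knockdown and 1686 and 3136 CPM in irradiated knockdown. The other cells ranged from 14.4 to 179 CPM over the 8 libraries. The rule fixes this direction, and single cells overlapped, with other cells of up to 2454 CPM and positive cells down to 11.5 CPM. AGR2 (ENSG00000106541.11, chromosome 7, 16791811 to 16833433) ranged from 128 to 556 CPM in positive cells and from 0.386 to 25.2 CPM in the others. SPDEF (ENSG00000124664.10, chromosome 6, 34537802 to 34556333) ranged from 0 to 102 CPM against 0.0552 to 2.44 CPM, and its 0 came from the positive cells of irradiated knockdown replicate 1. Reads of SPANXB1 may be shared with near-identical copies of its family, and how the counting treated them is not stated.

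The cells just inside and just outside the threshold are described here with no test, since the rule used SPANXB1 and AGR2. Exactly 3 of the genes were held by 13 positive cells, and exactly 2 by 40 of the other cells. Median SPANXB1 was 930 CPM in the former and 55.7 CPM in the latter, and median AGR2 was 106 and 6.73 CPM. KRT81, a hair-type keratin that the rule did not use, was higher in cells that held more of the genes. Pooled over libraries, its median was 1.22 CPM in the 140 cells with none of the genes, 16.2 CPM with 1, 40.2 CPM with 2, 266 CPM with 3, 465 CPM with 4, 717 CPM with 5 and 2158 CPM in the 8 cells with all 6. KRT81 reached 100 CPM in all 42 cells with 4 or more genes and in 9 of the 13 with 3, against 13 of the 40 with 2. Libraries differ in KRT81 and in their share of positive cells, so the pooled medians also carry the mix of libraries. Within libraries, 52 of 55 positive cells lay above the KRT81 median of the other cells. In WT the medians were 22.9, 29.3 and 46.5 CPM in cells with 0, 1 and 2 genes, 266 CPM with 3 and 1180 CPM with 4 to 6. In the knockdown they were 0 CPM with 0, 1 or 2 genes, 213 CPM in the 2 cells with 3, and 425 CPM in the 10 cells with 4 to 6.

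**Figure D2:**
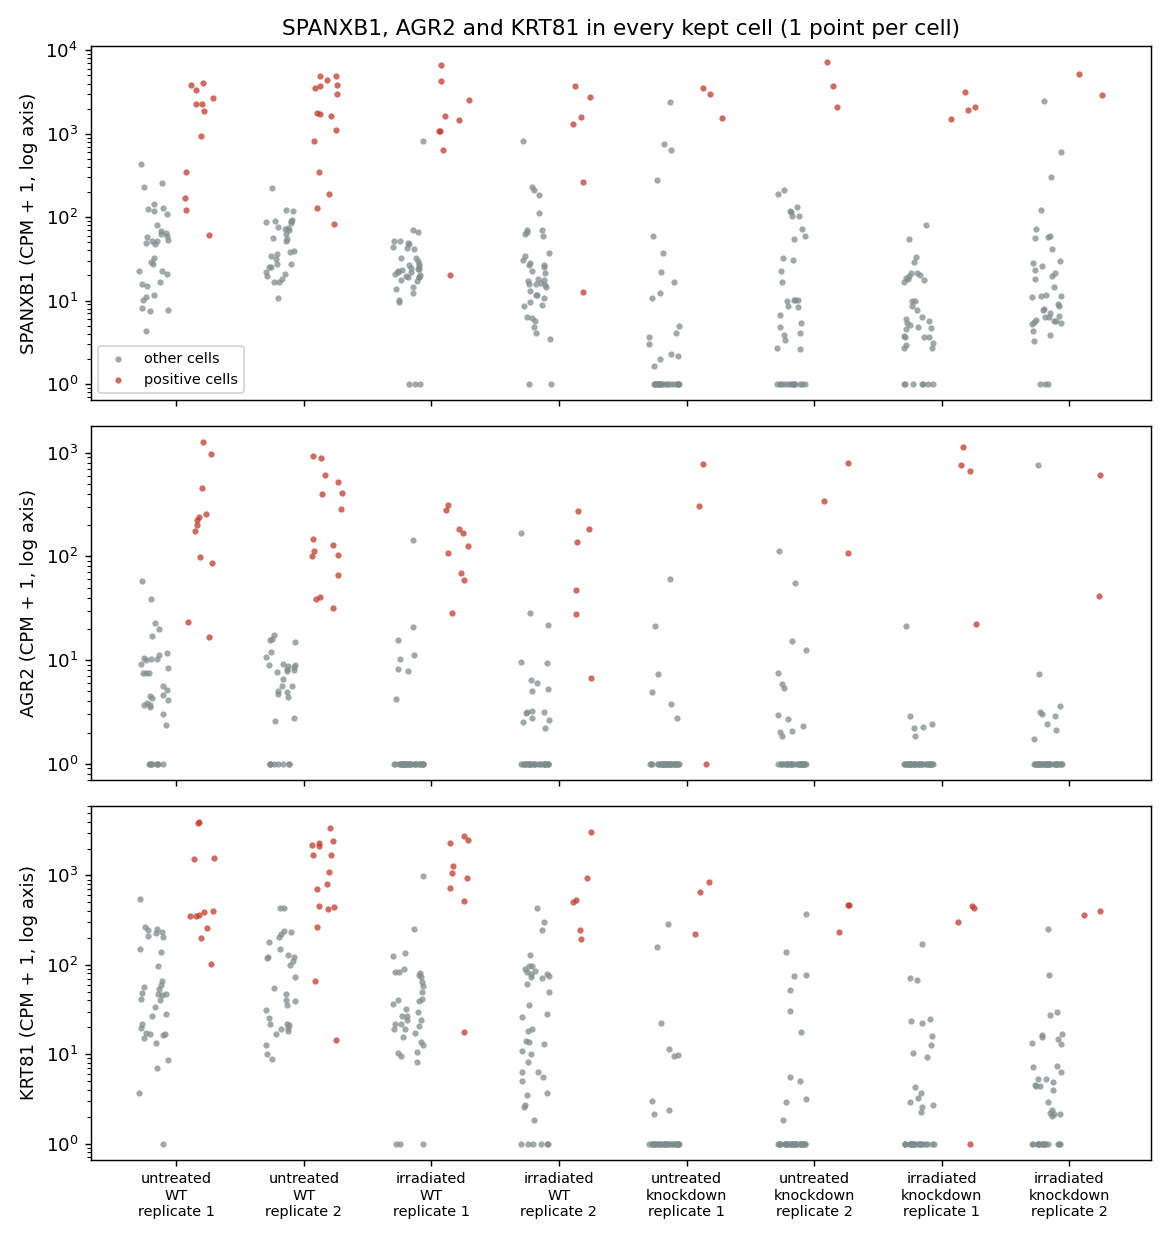
SPANXB1, AGR2 and KRT81 (CPM + 1, log axis) in each of the 363 kept cells, by library, with positive cells in red and other cells in grey. SPANXB1 has medians of 1932 CPM in positive and 16.0 CPM in other cells, and a few other cells reach the levels of positive ones.

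Depth overlapped between the classes. Positive cells held 9411 to 2241907 counts and other cells 12204 to 1834074, and the kept cells of a library 9321268 to 24256471. In the shallowest cells a single count exceeds 20 CPM, so the rule asks for fewer counts there than in deep cells. Thinning to 69000 counts could check this only in cells that reach that total, among them 49 of the 55 positive ones. More than 2 times the median total of the library was held by 14 of 55 positive and 51 of 308 other cells, a larger share of the positive ones. No doublet caller was run, and whether such cells hold more than 1 cell was not tested. No pair of cells had identical profiles. The largest positive cell gave 17.9% to 33.2% of the positive counts in WT libraries but 47.0% to 91.0% in knockdown libraries, so knockdown levels of positive cells rest largely on single cells, as do some genes in WT.

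Other genes were compared between positive and other cells on counts summed per class and library, with library as a block, in the 7 libraries with at least 3 positive cells. Irradiated knockdown replicate 2, with 2 positive cells, was left out of this fit, but its values are given. Of 12019 genes, 319 (2.65%) passed an adjusted p of 0.05 in edgeR's quasi-likelihood test, 171 higher in positive cells (1.42%) and 148 lower (1.23%). Without untreated WT replicate 2 the count was 192, and without untreated WT replicate 1 the genes lower numbered 96. Leaving aside the 6 genes of the rule, 165 were higher. The classes were cut from the same cells with genes picked from these data, so the adjusted p-values rank genes and are no independent evidence that the cells form a separate group. Values below are log2 differences, positive minus other, with their SE.

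Of the genes outside the rule that averaged a log2 CPM of 5 or more and had 1 direction in every library fitted, FOXA2, SOX4 and KRT81 had the largest positive differences. KRT81 (ENSG00000205426.10, chromosome 12, 52285913 to 52291534) stood at 1447 and 1313 CPM in the positive cells of untreated WT, at 1547 and 884 CPM in irradiated WT, at 501 and 358 CPM in untreated knockdown, and at 393 and 391 CPM in irradiated knockdown. The other cells ranged from 4.76 to 103 CPM, below every positive value (log2 difference 4.78, SE 0.292, edgeR adjusted p = 1.32e-09). KRT81 has close paralogs, so its reads may be shared. FOXA2 (ENSG00000125798.14, chromosome 20, 22581005 to 22585455), a forkhead factor of endoderm and gut epithelium, ranged from 19.1 to 204 CPM in positive cells and from 0 to 6.54 CPM in the others (6.27, SE 0.818, edgeR adjusted p = 8.74e-05). SOX4 (ENSG00000124766.6, chromosome 6, 21592768 to 21598619), a factor of progenitor cells, ranged from 26.9 to 1907 CPM and from 0.612 to 52.0 CPM (5.27, SE 0.772, edgeR adjusted p = 0.000284). FOXA2 and SOX4 were higher in positive cells in 8 of 8 libraries, although the SOX4 ranges overlapped across libraries.

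CST1, RASD1, SERPINE2 and COLGALT2 followed under the same limits. The cysteine protease inhibitor CST1 differed by 3.62 (SE 0.484) and the serine protease inhibitor SERPINE2 by 3.27 (SE 0.368). RASD1, a Ras-related GTPase, differed by 3.90 (SE 0.403) and COLGALT2, a collagen galactosyltransferase, by 3.21 (SE 0.494). Each was higher in 8 of 8 libraries. When 4 of the 6 rule genes were required, CST1 (edgeR adjusted p = 0.17) and RASD1 (0.157) no longer passed. Further genes, chosen after their values were seen, were the activin subunit INHBB (7.15, SE 0.779, higher in 7 of 8), the transcription factor MEF2C (6.08, SE 0.608, 8 of 8) and the surface glycoprotein CD24 (4.85, SE 0.645, 8 of 8). Also chosen after their values were seen were 4 genes known as targets or feedback regulators of the MAP kinase cascade, which say nothing of that cascade's other genes. The ETS factor ETV1 differed by 2.43 (SE 0.386), the phosphatases DUSP6 by 1.87 (SE 0.204) and DUSP4 by 1.12 (SE 0.154), and the feedback inhibitor SPRY1 by 2.43 (SE 0.391), which was higher in 7 of 8 libraries and did not pass without cells above 2 times the median total (edgeR adjusted p = 0.146).

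Acute-phase and aldo-keto reductase genes were among those lower. SAA1, a serum amyloid A protein, ranged from 85.6 to 979 CPM in positive cells and from 676 to 1780 CPM in the others (-2.31, SE 0.287, edgeR adjusted p = 4.83e-05). AKR1C3, a reductase of steroids and prostaglandins, ranged from 36.8 to 582 CPM against 180 to 1678 CPM (-2.05, SE 0.190, edgeR adjusted p = 1.57e-06). TNFSF10, the death ligand TRAIL, differed by -2.32 (SE 0.325) and the scaffold protein NEDD9 by -2.41 (SE 0.488). SAA1, AKR1C3 and TNFSF10 were lower in 8 of 8 libraries, and NEDD9 in 7. SAA1 and SAA2, and AKR1C3 and AKR1C1, are paralogs whose reads may be shared. TXNRD1, a thioredoxin reductase chosen after its values were seen, lay at 339 to 675 CPM in positive and at 974 to 1406 CPM in other cells (-1.27, SE 0.150).

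Luminal genes beyond the rule did not move as a block. Of 17 luminal genes tested, the trefoil factors TFF1 and TFF3 were higher and GATA3 was lower, and the median log2 difference was 0.01, against -0.23 over all genes, and 52.9% of them were higher, against 34.6% of all. TFF3 ranged from 5.38 to 63.3 CPM in positive and from 0.952 to 11.0 CPM in other cells (2.72, SE 0.651). TFF1 was detected in 13 of 55 positive cells and higher in 5 of 8 libraries (4.80, SE 1.21). GATA3 ranged from 3.56 to 38.0 CPM in positive and from 37.9 to 69.2 CPM in other cells (-1.83, SE 0.460). None of these 3 calls was firm: with 1 library left out, edgeR's adjusted p reached 0.259 for TFF1 (without irradiated knockdown replicate 1), 0.103 for TFF3 (without untreated WT replicate 1) and 0.135 for GATA3 (without untreated WT replicate 2). KRT8 (0.11, SE 0.145), KRT18 (0.01, SE 0.126) and KRT19 (0.48, SE 0.150) did not pass, and their transcripts were found in 55 of 55 positive cells and in at least 302 of 308 others. The naming criterion of at least 3 detected luminal genes was therefore met by both classes and did not tell them apart. The progesterone receptor PGR and the splicing factor ESRP1 were detected in 0 of 55 positive cells, the epithelial factor GRHL2 in 1 and E-cadherin (CDH1) in 5, against 15 of 308 others. Some other members were detected more often in positive cells without passing the test. The mucin MUC1 was detected in 43 of 55 against 122 of 308 (2.26, SE 0.668). The receptor ERBB3 was detected in 16 against 25 (2.72, SE 1.54) and the epithelial factor ELF3 in 21 against 61 (-1.17, SE 1.03). After thinning to equal counts per cell, MUC1 was detected in 59.2% of positive and 27.4% of other cells. ERBB3 was then at 20.4% and 3.20%, and ELF3 at 20.4% and 12.5%. The thinned shares of EPCAM (49.0% and 53.0%), EHF (36.7% and 47.3%), CLDN7 (51.0% and 53.4%) and XBP1 (91.8% and 94.3%) were lower in positive cells. EPCAM, EHF, CLDN7 and XBP1 did not pass the test either. ESR1, FOXA1, AGR3 and RAB25 were on the luminal list but had no entry under these symbols among the 15041 genes listed, so no level is given.

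Most genes that mark the parent line were found in most positive cells. Transcripts of VIM, AXL, CD44, CAV1, MSN, LGALS1 and FN1 were detected in all 55 positive cells, and ZEB1, a repressor of epithelial genes, in 40 of 55 against 253 of 308 others. TGFBI was detected in 48 of 55 positive cells and SNAI2 in 38, and SPARC in 5 of 55 and in 12 of 308 others. Of 12 mesenchymal and MDA-MB-231 genes tested, VIM was higher (0.48, SE 0.116) and caveolin-1 (CAV1) lower (-0.68, SE 0.177), and the median was -0.45, with 25.0% higher. Over all genes 2.65% were called, the median was -0.23 and 34.6% were higher. Without untreated WT replicate 2, edgeR's adjusted p was 0.0871 for VIM, 0.12 for CAV1 and 0.207 for CD14, so none of the 3 passed. Of 5 basal genes tested, CAV1 alone passed. Of the leukocyte list, PTPRC, the pan-leukocyte CD45, was detected in 1 of 55 positive cells, and LYZ and JCHAIN in 0 of 55, which for each of these 2 allows a share of up to 5.45% of cells with a count (a limit of 3 counts, for counting error only). CD14 was detected in 31 of 55 positive and 166 of 308 other cells and was lower in positive cells (-1.87, SE 0.493), and the rule gene SLAMF7 was detected in 30 and 21. Of an embryonic kidney list, GATA3, described above, is the member reported.

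Of the cancer/testis genes other than SPANXB1, all 5 tested had positive differences, as had 34.6% of all genes. SPANXD, MAGEA12 and PAGE1 were measured but not tested. In other cells the 5 had library medians of 0.03 to 1.61 CPM. Genes this low there can pass the count filter through the positive cells, so their shared direction is a description only. Of the 5, 2 passed, against 1.42% called higher of all genes: SPANXC (5.28, SE 1.12) and the melanoma antigen MAGEA3 (4.75, SE 1.24). SPANXC was detected in 39 of 55 positive and 27 of 308 other cells, and MAGEA3 in 20 and 16. Both have close paralogs, and without untreated WT replicate 2 edgeR's adjusted p was 0.0637 for SPANXC and 0.173 for MAGEA3. With SPANXB1, a relative of SPANXC, left out of the rule, it was 0.0691 for SPANXC and 0.267 for MAGEA3, so neither passed. Of 7 G2/M and 7 G1/S genes, 0 passed in edgeR and 0 in DESeq2. An unadjusted edgeR p under 0.05 was found for 1 G2/M and 0 G1/S genes. The medians were -0.22 and -0.34, against -0.23 over all genes. Higher in positive cells were 0 of the 7 G2/M and 1 of the 7 G1/S genes (14.3%), against 34.6% of all genes. Of all genes, 2.65% were called. MKI67, a proliferation marker, differed by -0.22 (SE 0.232), the checkpoint target CDKN1A by -0.31 (SE 0.281) and ATM itself by 0.20 (SE 0.537).

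The positive cells also differed by chromosome, a pattern noticed after the values were seen and given with no test. Among 5044 genes whose log2 CPM averaged 5 or more, the median log2 difference was -0.08 and 41.7% were higher in positive cells. The first 60 Mb of chromosome X held 67 of these genes, with a median of -0.72, and 7 of them were higher (10.4%). The rest of X, with 112 genes, had a median of -0.05. Chromosome 12, with 275 genes, had a median of 0.22, and 72.4% were higher. Chromosomes 18 (-0.48), 13 (-0.37), 21 (-0.33), 2 (-0.32) and 6 (-0.32) were low, in 8 of 8 libraries each relative to the library's median. The first 60 Mb of X was low and chromosome 12 high in 8 of 8 libraries as well.

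**Figure D3:**
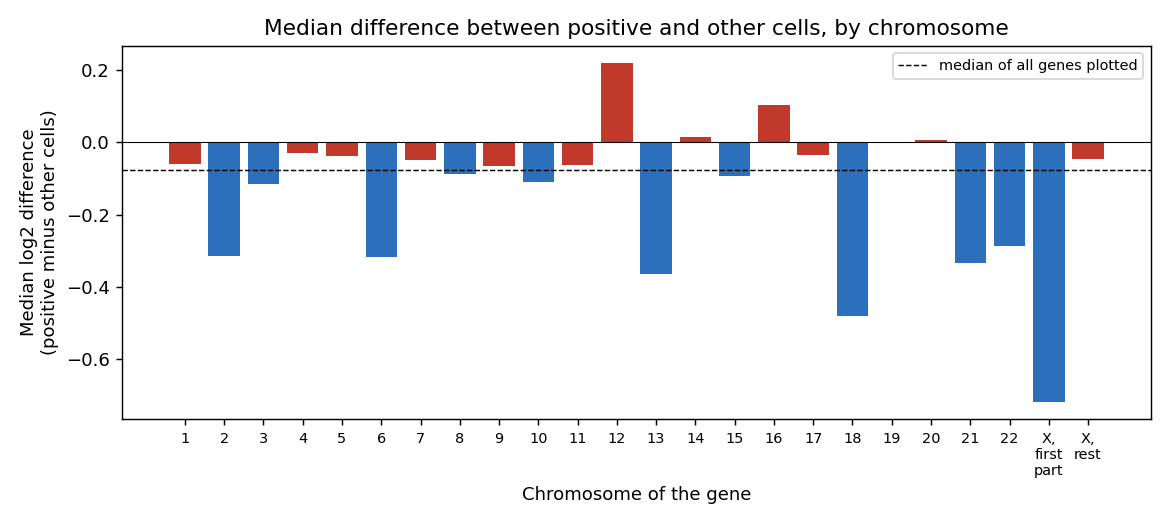
Median log2 difference between positive and other cells (y axis) of the genes of each chromosome (x axis), X being split at 60 Mb, with red bars above and blue bars below the dashed median of all 5044 genes. The first part of X is lowest at -0.72 and chromosome 12 highest at 0.22.

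Single genes of the first 60 Mb of X are given as examples, and each lay further from 0 than the region's median of -0.72. The deubiquitinase USP9X ranged from 81.2 to 202 CPM in positive cells and from 257 to 409 CPM in the others (-1.25, SE 0.182). The histone chaperone RBBP7 (-1.19, SE 0.177), the translation factor subunit EIF2S3 (-1.41, SE 0.211) and the Mediator subunit MED14 (-1.50, SE 0.258) were lower in 8 of 8 libraries. On the rest of X, the lysosomal sulfatase IDS (1.62, SE 0.183) and the ribosomal protein RPS4X (0.78, SE 0.127) were higher in 8 of 8. They are not typical of that part, where the median was -0.05 and 46.4% of genes were higher. These 6 genes were chosen after their values were seen and do not stand for their regions.

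The same contrast was seen cell by cell. Genes of the first 60 Mb of X held a smaller share of the counts than the median of the other cells of the library in 51 of 55 positive cells. Genes of chromosome 12 held a larger share in 52 of 55. By number of rule genes held, from 0 to 6, the median chromosome 12 share was 4.49%, 4.51%, 4.57%, 5.45%, 5.84%, 6.15% and 6.35%. The median share of the first 60 Mb of X was 2.21%, 2.32%, 2.45%, 2.00%, 1.69%, 1.56% and 1.33%. The pooled medians thus moved from 2 to 3 genes and further from 3 to 6. They also carry the mix of libraries. In WT the X share was 2.72% with 2 genes, 2.00% with 3 and 1.69% with 4 to 6. In the knockdown it was 1.90% in the 8 cells with 2 genes, 1.88% in the 2 with 3 and 1.46% with 4 to 6. The step in X from 2 to 3 genes was thus seen in WT only. From 2 to 3 genes the chromosome 12 share rose from 4.54% to 5.45% in WT and from 4.67% to 5.22% in knockdown. DNA copy number and genotype were not measured, and whether the cells differ in either from the rest of the line, or come from another line, was not tested.

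**Figure D4:**
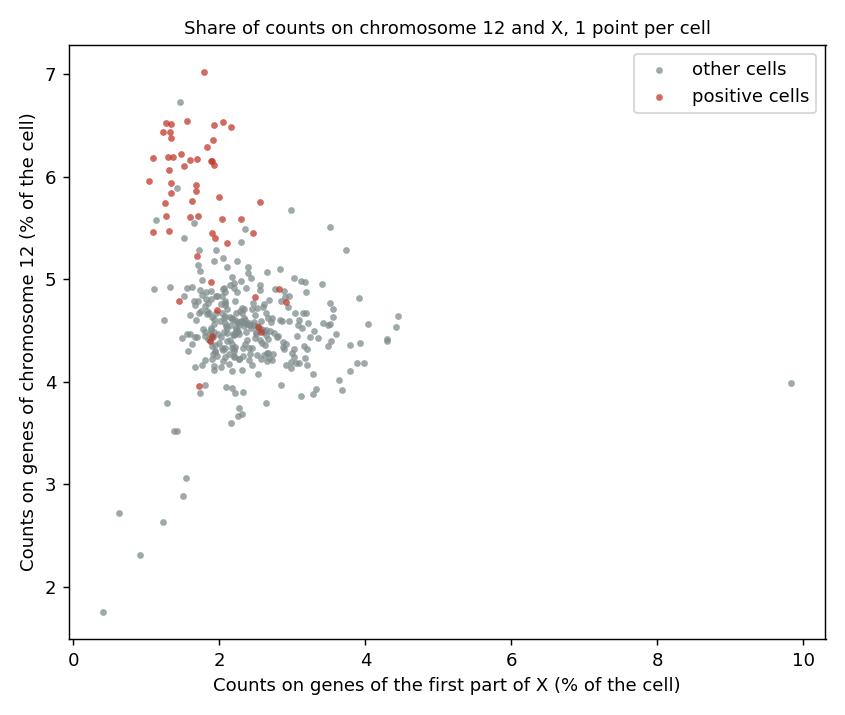
Share of a cell's counts on genes of the first 60 Mb of X (x axis, percent) and of chromosome 12 (y axis, percent), 1 point per kept cell, with positive cells in red and other cells in grey. Most positive cells lie up and to the left of the others, and some lie among them.

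Because FOXA2 was among the leading genes, the 250 bases before the start of the rule genes were searched. The search took only TGTTTA, a form of the forkhead core, or its reverse complement TAAACA. Other forms of a forkhead site were not searched. Of the 6 genes, 3 matched an entry of the RefSeq promoter table (GRCh38.p14), and these are shown 5′ to 3′ on the gene's strand. The starts are those of RefSeq, and that of AGR2 lies inside the longer GENCODE span given above, which begins at another start further upstream. AGR2 lies at chr7:16805000-16805249 on the minus strand, SPDEF at chr6:34556330-34556579 on the minus strand and SPANXB1 at chrX:141002344-141002593 on the plus strand, with matches in capitals.
AGR2: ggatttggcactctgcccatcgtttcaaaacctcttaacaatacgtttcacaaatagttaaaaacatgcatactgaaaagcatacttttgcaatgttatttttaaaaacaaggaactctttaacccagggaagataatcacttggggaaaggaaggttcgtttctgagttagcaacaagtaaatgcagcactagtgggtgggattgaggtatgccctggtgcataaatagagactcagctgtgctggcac
SPDEF: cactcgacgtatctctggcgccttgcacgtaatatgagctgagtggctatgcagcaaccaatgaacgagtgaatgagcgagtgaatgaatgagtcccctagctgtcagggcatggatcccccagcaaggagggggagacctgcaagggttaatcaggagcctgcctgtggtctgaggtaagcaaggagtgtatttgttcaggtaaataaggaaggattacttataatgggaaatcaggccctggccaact
SPANXB1: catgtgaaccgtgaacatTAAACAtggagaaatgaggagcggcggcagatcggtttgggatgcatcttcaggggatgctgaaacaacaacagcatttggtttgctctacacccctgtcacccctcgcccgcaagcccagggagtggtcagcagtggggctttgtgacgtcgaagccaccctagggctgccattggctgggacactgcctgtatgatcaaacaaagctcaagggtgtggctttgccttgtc
SPANXB1 held 1 match to these letters, and AGR2 and SPDEF held none, which does not exclude other forms of the site. The motif occurred in 3860 of 35116 promoters of that length (11.0%), so a single match is a description of these letters only.

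Irradiation was then followed with and without the positive cells, in comparisons devised after values were seen. In WT, 205 of 12456 genes (1.65%) passed in edgeR when all kept cells were summed, and 180 of 12157 (1.48%) when positive cells were left out. The count over all cells moved with single libraries, to 129 and 89 without irradiated WT replicates 1 and 2, and to 376 and 375 without untreated knockdown replicates 1 and 2. Of the 205 genes, 123 were called again and 82 were not. Of these 205 genes, 16 were higher in positive cells and lower after irradiation, and 12 of the 16 were no longer called without positive cells, among them SOX4, FOXA2, ETV1, DUSP4, RASD1 and SERPINE2. A lost call is not a lost difference: the log2 change over all cells and over other cells was -2.69 and -3.13 (SE 1.94) for FOXA2, -2.76 and -1.73 (SE 1.08) for RASD1, -2.25 and -1.22 (SE 0.782) for SERPINE2, -1.51 and -0.75 (SE 0.405) for ETV1, and -1.16 and -0.72 (SE 0.189) for DUSP4. Of the 167 called in neither direction in positive cells, 65 were also lost, and of the 21 lower in positive cells, 5 were. FOXA2, ETV1, RASD1 and SERPINE2 also lost the call when some single libraries were left out, with edgeR adjusted p-values of up to 0.112, 0.0979, 0.195 and 0.1. In sums over all kept cells, fewer positive cells and less RNA of a gene per positive cell cannot be told apart. In WT positive cells alone, untreated and irradiated means were 196 ± 4.30 and 52.9 ± 23.6 CPM for SERPINE2. They were 80.6 ± 12.6 and 20.4 ± 1.92 CPM for FOXA2, and 124 ± 86.4 and 24.3 ± 1.89 CPM for RASD1 (SD, n = 2 libraries each). None of these was called there, and levels of ETV1 and DUSP4 are not given.

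SOX4 shows how far a sum can rest on these cells. Positive cells held 35.7% to 99.2% of the SOX4 counts of a library (median 84.0%). In positive cells SOX4 stood at 629 and 963 CPM in untreated WT and at 26.9 and 81.2 CPM in irradiated WT. In other cells it stood at 52.0 and 16.2 CPM untreated and at 13.6 and 6.92 CPM irradiated. The log2 change in WT was -3.92 (SE 0.489, edgeR adjusted p = 0.0014) over all cells, -1.73 (SE 0.888, adjusted p = 0.384) over the other cells and -3.83 (SE 0.631, adjusted p = 0.0333) over positive cells. The SOX4 call over all cells was lost without the positive cells, with a smaller and less certain change in the others. A single cell held 41.4% and 55.0% of the SOX4 counts of the untreated WT libraries and 39.0% and 49.1% of those of the irradiated ones. These levels thus rest largely on 1 cell per library. In irradiated WT replicate 1 that cell was not a positive one, since all positive cells together held 35.7%. There it bears on the level of the other cells.

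CST4 and AKR1B1 passed in both classes of WT cells. CST4, an inhibitor of cysteine proteases, stood at 474 and 1134 CPM in the positive cells of untreated WT and at 22.5 and 11.0 CPM in those of irradiated WT. In other cells CST4 stood at 64.1 and 78.8 CPM untreated and at 14.7 and 15.5 CPM irradiated. The log2 change was -4.32 over all cells, -2.24 over other cells (SE 0.480, edgeR adjusted p = 0.0262) and -5.59 over positive cells (SE 0.761, adjusted p = 0.00416). CST1 had -3.40 over all cells and -2.66 over other cells (edgeR adjusted p = 0.0477), and its call over all cells was lost without irradiated WT replicate 2 (adjusted p = 0.0966). AKR1B1, the aldose reductase, was lower in positive than in other cells (-0.98, SE 0.127), and its log2 change after irradiation was -2.33 over other cells and -2.72 over positive cells (SE 0.337, edgeR adjusted p = 0.00218). CST1 and CST4 are paralogs whose reads may be shared.

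**Figure D5:**
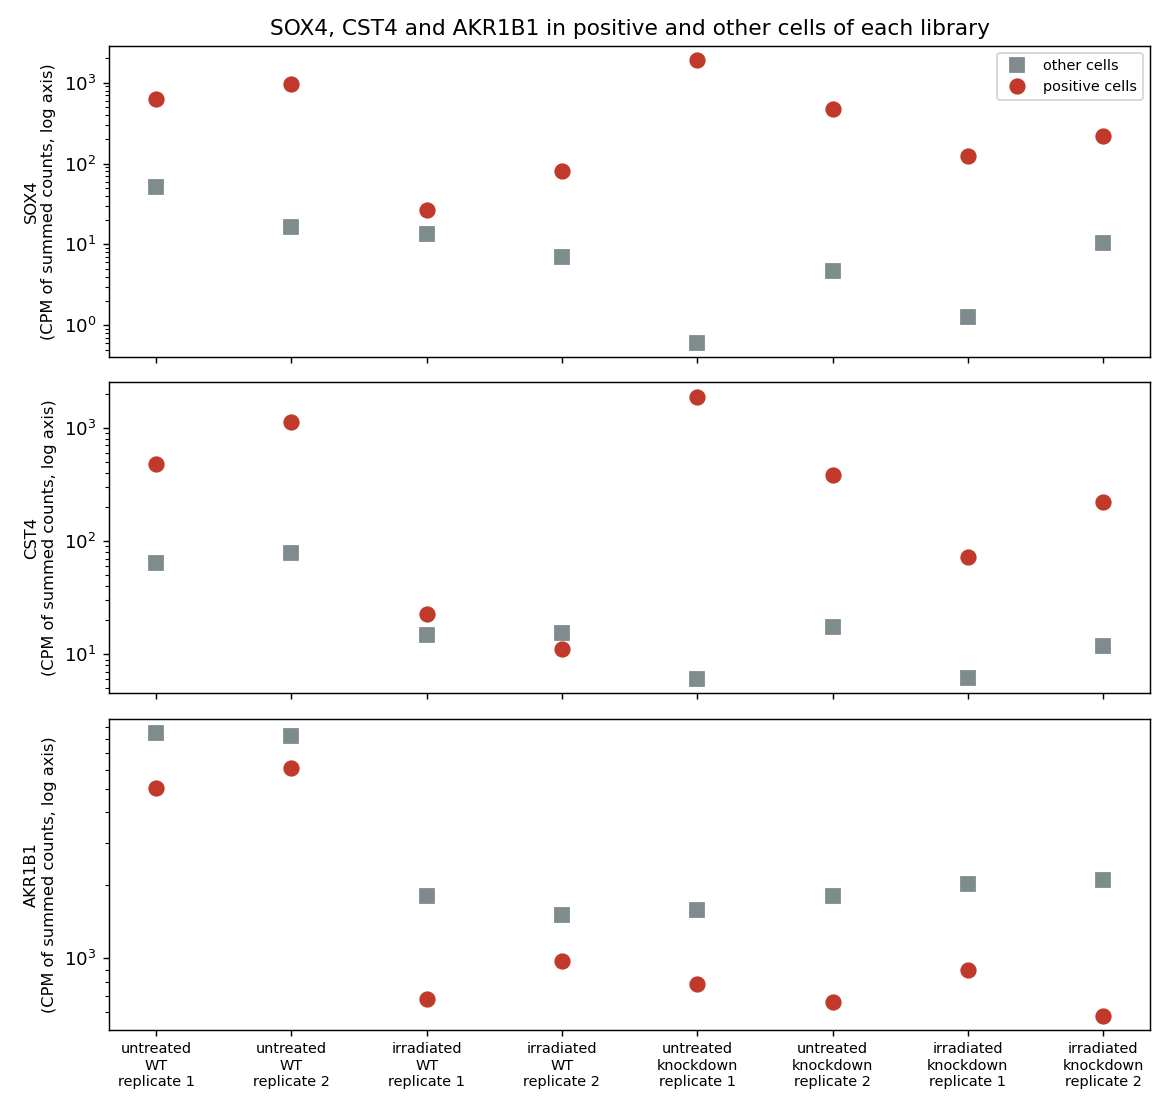
SOX4, CST4 and AKR1B1 (CPM of summed counts, log axis) in the positive cells (red circles) and other cells (grey squares) of each library. SOX4 in positive cells of WT stands at 629 and 963 CPM untreated and at 26.9 and 81.2 CPM irradiated, while AKR1B1 is lower in positive than in other cells of every library.

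Within positive cells of WT, AKR1B1, CST4 and SOX4 were the 3 genes called of 10460 (0.0287%), with 265 at an unadjusted p under 0.05. With 1 library left out, 4 to 9 genes were called, these 3 among them, but leaving out a WT library leaves 1 library in that arm, whose spread is then assumed to be that of the other groups. Within positive cells of the knockdown 15 genes were called (0.143%), and 16 to 127 with a library left out, but single cells hold most of those counts in 3 of the 4 libraries, so none is named. For the difference between genotypes, 0 genes passed in edgeR, with 731 at an unadjusted p under 0.05 and a smallest adjusted p of 0.0969. Over all kept cells of the knockdown, 28 genes were called (0.225%), and all 28 were called again without positive cells, when 32 of 12157 passed (0.263%).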

How the data were processed

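Single cells of MDA-MB-231 were isolated by mouth pipette and sequenced after a modified Smart-seq2 amplification with 3′ libraries, per the labels' protocols. The deposited values are whole-number counts per gene and cell, which the authors made with Trimmomatic 0.36, HISAT2 2.1.0 and HTSeq 0.9.1 on hg38, per the submitters' processing notes. Whether they count reads or molecules, and whether strand was used, is not given in the sources used here.

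Of 378 cells, 363 with at least 1000 genes and 5000 counts were kept. Counts were summed per library and class, passed through filterByExpr and TMM scaling, and tested with the quasi-likelihood test of edgeR 4.0.16 (R 4.3.3) with library as a block, with Benjamini-Hochberg adjustment over all genes tested. That fit had 6 residual degrees of freedom and a biological coefficient of variation of 0.631. Irradiation was tested on sums per library with 4 groups in 1 fit. On simulated data for positive against other cells over 12019 genes, 100 were changed 2-fold and 100 4-fold. Of these, 56% and 94% were recovered with 3 false calls, and there were 0 calls with no changed gene. Recovery of genes with low counts, or from sums that rest largely on 1 cell, was not tested. Alternatives used DESeq2 1.42.0, limma 3.58.1 on log2(mean CPM + 1), other thresholds, counts thinned to 69000 per cell, and each library left out.

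Gene positions came from GENCODE 29, in which 15031 of 15041 identifiers were found without their version. Genes were named by a rule: the 6 rule genes, the measured members of the marker lists, ATM, CDKN1A and MKI67, and the 12 largest differences in each direction among called genes that averaged a log2 CPM of 5 or more and had 1 direction in every library fitted. Some genes that the rule takes are not reported here. The rule for the cells, the lists and the comparisons were chosen with earlier results of these data known. Intervals cover counting error only. Descriptive steps ran in Python 3.11.15 with pandas 2.3.3 and scipy 1.17.1.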

Additional observations from a re-analysis of the deposited data

How the results depend on the processing

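The share of positive cells over all libraries was 26.2% when 2 of the 6 genes sufficed. WT lay above knockdown, and irradiated below untreated, under each alternative run, with differences of 10.8 to 27.4 points and -15.1 to -4.33 points. Thinned to 69000 counts, which 330 cells (49 of the positive ones) reached, 14.8% were positive, as without thinning in those cells. Of 12019 genes, DESeq2's Wald test called 900 (396 higher, 504 lower) and limma on mean CPM 611 (377 lower). Replicate numbers pair no libraries, so the replicate block was the library itself, and without that block 169 genes were called (44 lower). DESeq2's size factors gave 60.2% of calls as higher, against 53.6%. Leaving out each library gave 192 to 370 calls (103 to 192 higher, 89 to 178 lower), with 192 (103 higher, 89 lower) without untreated WT replicate 2 and 96 lower without untreated WT replicate 1. Of 64 named genes called, 32 were called under every alternative and none changed direction. KRT81, FOXA2 and SOX4 were among the 32, whereas TFF1, TFF3, GATA3, VIM, CAV1, CD14, MAGEA3 and SPANXC were each lost under at least 1, and CST1, CST4 and RASD1 when 4 of the 6 genes were required. Irradiation in WT gave 534 calls with no filter and 89 to 376 with a library left out, 89 without irradiated WT replicate 2 and 376 without untreated knockdown replicate 1. In positive cells alone, leaving out a library gave 4 to 9 calls in WT and 16 to 127 in knockdown, with AKR1B1, CST4 and SOX4 among those called in WT, though an arm left with 1 library borrows its spread from the other groups. The cause of these changes was not tested. Positive cells of the knockdown were too few to give levels free of single cells.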
